A study of Mus musculus with 3 samples.

Results

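The genes described here are 10 components of the LIF receptor and STAT3 pathway, namely *Lif*, *Lifr*, *Il6st*, *Jak1*, *Jak2*, *Stat3*, *Socs3*, *Ptpn11*, *Pim1*, and *Pim3*. They were chosen by gene name and not by their values, though earlier results of these data were known. Each name matched 1 row among the 55421 named genes of the deposited count table. All 10 had reads in each of the 3 libraries. The libraries are replicates 1, 2, and 3 of ALSCs, which are primed stem cells derived from the epiblast of E6.5 embryos of ICR females mated with GOF/GFP males. GOF/GFP is a green fluorescent reporter of *Oct4* (Oct4ΔPE-GFP), and the study describes ALSCs as negative for it. The cells were kept on fibronectin in N2B27 with Activin A and LIF, so that every library came from cells exposed to added LIF. PolyA RNA was sequenced. Whether the 3 libraries came from separate derived lines or from cultures of 1 line is not given in the sources used here. The study calls its RNA-seq replicates biological. In either case, the p-values below set these libraries against counting error only and do not measure the spread between lines or cultures. No library without LIF and no other cell type was analysed here, so nothing below is a response to LIF, and no difference between ALSCs and other cells was tested.

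LIF is a cytokine of the IL-6 family. It binds the receptor chain LIFR, which pairs with gp130, the signaling chain encoded by *Il6st* and shared by the whole family. Both chains carry JAK kinases, which phosphorylate the receptor and then the transcription factor STAT3. STAT3 enters the nucleus and activates genes that include *Socs3*, whose protein binds gp130 and JAK and shuts the signal down. The phosphatase SHP2, encoded by *Ptpn11*, docks on the same receptor site as SOCS3 and leads to the ERK branch. In mouse ESCs, LIF and STAT3 sustain self-renewal, whereas EpiSCs depend on Activin and FGF.

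STAT proteins bind DNA at palindromes of the form TTCNNNGAA, where N is any base. This motif was searched in the RefSeq promoter windows of GRCm38.p6, each of which covers 250 bases before and 50 bases after an annotated start. The 10 genes had 12 such windows, and 1 of them, that of *Socs3*, held the motif. Of all 32851 windows, 8.30% held it, so the share of 8.33% among these windows was at the background. The stretch around the motif upstream of the RefSeq start of *Socs3* is shown because *Socs3* was the gene of the pathway with the highest level. It is followed by one upstream of a RefSeq start of *Sbno2*, a gene listed as a STAT3 target. That stretch held the stricter form TTCCNGGAA, present in 1.15% of all windows. By gene, 1 of the 12 listed STAT3 targets with a window held this form, against 1.35% of all genes. It also stood in windows of *Cish* and of *Il31ra*, which had no count in any library. Capitals mark the motif, which reads as TTCNNNGAA on both strands.
*Socs3* (GRCm38.p6, chr11:117969452-117969580, minus strand): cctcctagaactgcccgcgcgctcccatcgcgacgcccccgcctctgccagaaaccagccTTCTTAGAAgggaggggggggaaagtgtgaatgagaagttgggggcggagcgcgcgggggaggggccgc
*Sbno2* (GRCm38.p6, chr10:80101188-80101271, minus strand): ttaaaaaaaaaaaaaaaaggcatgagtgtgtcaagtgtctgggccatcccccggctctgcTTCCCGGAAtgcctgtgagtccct
The motif began 154 bases before the RefSeq start of the *Socs3* window and 24 bases before that of this *Sbno2* window. Neither stretch overlapped an annotated exon of its gene. The *Socs3* stretch lay inside the gene span given below, which reaches 117970047 on the minus strand. *Sbno2* had another window further upstream, at 80102653 to 80102952, with the looser form 26 bases before its start. No binding was measured, so these are matches of letters and not sites.

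Levels are given as FPKM, that is, counts per kilobase of gene length per 1000000 counts on named genes. The total counts were 18088505, 18724038, and 18037342 for replicates 1, 2, and 3, so depth was alike. As the reads carry no molecular identifiers, limits derived from counts cover counting error only. Each of the 10 genes lay above the 3 counts that a count of 0 would allow, in every library. In all, 9 of the 10 genes reached 1 FPKM in all libraries, against 20.1% of named genes and 45.7% of protein-coding genes. Their median level was 4.28 FPKM, against 0.682 FPKM for protein-coding genes. As these are bulk libraries, a low level from few cells and a low level in every cell cannot be told apart.

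The labels call the cells embryonic stem cells from epiblast, and the pluripotency genes were present, with *Pou5f1* at 647.8 ± 25.3 FPKM (SD, n = 3). All 6 epiblast markers reached 1 FPKM in all libraries, while 1 of 6 naive markers did. The epiblast list included the pluripotency genes *Pou5f1*, *Sox2*, and *Nanog*. Its lowest genes were *Fgf5* at 3.89 ± 0.0503 FPKM and *Otx2* at 5.08 ± 0.472 FPKM (SD, n = 3). The others had means of 119.2 FPKM or more. The naive marker that reached 1 FPKM was *Klf2*, at 3.29 ± 0.232 FPKM (SD, n = 3). Summed over the list, extraembryonic endoderm markers were at 0.493 to 0.636 FPKM per library and trophoblast markers at 1.17 to 1.51 FPKM. In every library, 4 of the 8 endoderm markers and 4 of the 6 trophoblast markers were at or under 3 counts. *Ttr* had 0 counts and *Cdx2* at most 1. The highest markers were *Sox17* at 0.268 ± 0.0299 FPKM and *Tfap2c* at 0.829 ± 0.162 FPKM (SD, n = 3). Of 8 fibroblast markers, 3 reached 1 FPKM in all libraries, namely *Thy1* at 6.88 ± 0.400 FPKM, *Col1a1* at 5.04 ± 1.11 FPKM, and *Fbln2* at 1.22 ± 0.0634 FPKM (SD, n = 3), while 4 were at or under 3 counts, among them *Dcn* and *Lum* at 0. The summed level of the list was 12.6, 14.2, and 13.4 FPKM in replicates 1, 2, and 3.

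The ligand gene *Lif* (ENSMUSG00000034394; GRCm38 chromosome 11, 4257557 to 4272514) had the lowest level of the pathway. It was measured at 0.559, 0.663, and 0.446 FPKM in replicates 1, 2, and 3, from 44, 54, and 35 counts. Its mean was 0.556 ± 0.108 FPKM (SD, n = 3), and no library reached 1 FPKM. Of the 9 other ligands of the family, *Ctf1*, which encodes cardiotrophin 1, was the only one at 1 FPKM or more in every library, at 3.25 ± 0.262 FPKM (SD, n = 3). *Il6*, *Il27*, and *Il31* had no count, which allows up to 3 counts for each in a library, and *Osm* and *Clcf1* were at or under 3 counts. The lowest ligand above that limit was *Il11*, with 1, 4, and 5 counts.

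The receptor chain gene *Lifr* (ENSMUSG00000054263; chromosome 15, 7090614 to 7197489) was measured at 1.37, 1.48, and 1.22 FPKM in replicates 1, 2, and 3. Its mean of 1.36 ± 0.129 FPKM (SD, n = 3) exceeded 2.18% of the means of the 11125 expressed genes, taken as those that reached 1 FPKM in each library. *Il6st* (ENSMUSG00000021756; chromosome 13, 112464070 to 112510086) was at 2.08, 3.81, and 3.58 FPKM, with a mean of 3.16 ± 0.937 (SD, n = 3). The libraries did not agree on *Il6st*, which was lowest in replicate 1, while *Lifr* was lowest in replicate 3. *Il6st* was higher than *Lifr* in every library, at a ratio of 1.52, 2.57, and 2.92 in replicates 1, 2, and 3. This ratio averaged 2.34 ± 0.730 (SD, n = 3).

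Among the other receptor chains, *Cntfr* was far above both. It encodes the CNTF receptor alpha chain, which binds CNTF and signals through LIFR and gp130, and was at 21.4, 25.9, and 24.3 FPKM in replicates 1, 2, and 3. Of the summed FPKM of 9 receptor chain genes, *Cntfr* took 76.1 ± 0.285% (SD, n = 3), *Il6st* 9.94 ± 2.20%, and *Lifr* 4.36 ± 0.510%. *Il11ra1* reached 1.67 ± 0.0108 FPKM (SD, n = 3). *Il6ra*, the chain that binds IL-6, was at 0.162 ± 0.0714 FPKM (SD, n = 3), the lowest of the chains above 3 counts. *Osmr*, *Il27ra*, and *Il31ra* had 3 counts or fewer in each library. The gene for CNTF itself, *Cntf*, had 3, 4, and 1 counts.

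**Figure D1:**
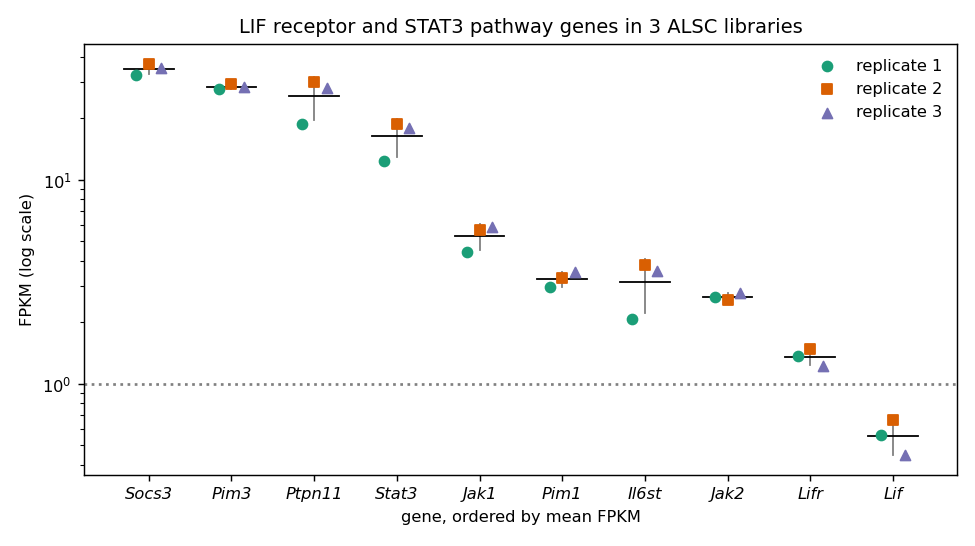
FPKM on a log scale of the 10 pathway genes in replicates 1, 2, and 3 of ALSCs, ordered by mean. Horizontal bars are means, vertical bars are SD (n = 3), and the dotted line marks 1 FPKM. *Socs3*, *Pim3*, *Ptpn11*, and *Stat3* lie above 10 FPKM in each library, and *Lif* alone lies under 1 FPKM.

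Of the kinases, *Jak1* (ENSMUSG00000028530; chromosome 4, 101152367 to 101265282), which encodes the main JAK of gp130 signaling, was at 4.43, 5.64, and 5.85 FPKM in replicates 1, 2, and 3. *Jak2* (ENSMUSG00000024789; chromosome 19, 29251828 to 29313080) was lower in every library, at 2.66, 2.56, and 2.78 FPKM. The means were 5.30 ± 0.765 FPKM for *Jak1* and 2.67 ± 0.109 FPKM for *Jak2* (SD, n = 3), and the ranges did not overlap. The ratio of *Jak1* to *Jak2* was 1.67, 2.20, and 2.10 in replicates 1, 2, and 3. It rested on the gene lengths, since with the longest coding transcript in place of all exons its mean went from 1.99 ± 0.287 to 2.93 ± 0.422 (SD, n = 3). *Jak3*, which acts with receptors that hold the common gamma chain, reached 5.43 ± 1.08 FPKM and *Tyk2* 3.41 ± 0.491 FPKM (SD, n = 3). Of the summed FPKM of the 4 kinases, *Jak1* held 31.6 ± 0.218%, *Jak3* 32.1 ± 2.43%, *Tyk2* 20.3 ± 0.620%, and *Jak2* 16.1 ± 2.39% (SD, n = 3). The shares of *Jak1* and *Jak3* differed by less than the SD of *Jak3*.

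*Stat3* (ENSMUSG00000004040; chromosome 11, 100885098 to 100939540) was at 12.3, 18.8, and 17.8 FPKM in replicates 1, 2, and 3, with a mean of 16.3 ± 3.48 (SD, n = 3). It was the highest of the 6 STAT genes analysed in each library and took 41.2 ± 2.38% of their summed FPKM (SD, n = 3). The next was *Stat6*, which mediates IL-4 signaling, at 8.09 ± 1.16 FPKM, and the lowest was *Stat4* at 0.919 ± 0.146 FPKM (SD, n = 3). The end of *Stat3* overlaps that of *Stat5a* on the other strand over 72 bases (chromosome 11, 100885098 to 100885169), and since no source states that reads were counted by strand, a few could belong to either. *Stat5a* had 186, 256, and 207 counts where *Stat3* had 2128, 3356, and 3065.

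*Socs3* (ENSMUSG00000053113; chromosome 11, 117966079 to 117970047) had the highest level of the 10 genes. It was measured at 32.7, 36.8, and 35.4 FPKM in replicates 1, 2, and 3, which averaged 35.0 ± 2.09 (SD, n = 3) and exceeded the mean of 84.8% of expressed genes. It took 56.2 ± 0.701% of the summed FPKM of the 8 genes of the SOCS family (SD, n = 3), with little spread over the libraries. The next member, *Socs2*, was at 8.14 ± 0.209 FPKM (SD, n = 3). *Socs1*, which like *Socs3* inhibits JAK directly, was at 1.51 ± 0.229 FPKM, and *Cish*, a target of STAT5, at 0.406 ± 0.0237 FPKM (SD, n = 3). With the longest coding transcripts as lengths, the share of *Socs3* was 40.2%. The level of *Socs3* was 2.65, 1.96, and 1.99 times that of *Stat3* in the 3 libraries. Of the 14 other negative regulators, 13 reached 1 FPKM in all libraries. The exception was *Cish*. By mean, the highest was *Ptpn2*, a phosphatase of JAK and STAT proteins, at 20.5 ± 2.62 FPKM (SD, n = 3). The libraries did not agree on this rank. *Ptpn2* was at 23.5, 18.5, and 19.6 FPKM in replicates 1, 2, and 3, and *Pias2* at 16.6, 20.8, and 20.4 FPKM.

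*Ptpn11* (ENSMUSG00000043733; chromosome 5, 121130533 to 121191397) was at 18.7, 30.2, and 28.1 FPKM in replicates 1, 2, and 3, with a mean of 25.6 ± 6.12 (SD, n = 3). It had the most counts of the 10 genes, 10556 in all, and the third level once length was taken into account. All 12 genes listed for the branch from SHP2 to ERK reached 1 FPKM in all libraries. By mean, the highest of them was *Mapk3*, which encodes ERK1, at 61.2 ± 3.14 FPKM, and the lowest *Sos1*, a RAS exchange factor, at 2.04 ± 0.428 FPKM (SD, n = 3). In replicate 3, *Map2k1* was above *Mapk3*, at 58.5 against 57.9 FPKM. The median of this list was 30.1 FPKM.

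The PIM kinases are survival kinases that are active once made, so that transcript level is a main control of them. *Pim3* (ENSMUSG00000035828; chromosome 15, 88862186 to 88865726) was at 27.8, 29.4, and 28.3 FPKM in replicates 1, 2, and 3. *Pim1* (ENSMUSG00000024014; chromosome 17, 29490753 to 29496112) was at 2.98, 3.30, and 3.51 FPKM. The means were 28.5 ± 0.818 for *Pim3* and 3.26 ± 0.270 for *Pim1* (SD, n = 3), and *Pim3* exceeded *Pim1* by 9.33, 8.89, and 8.06 times. The third kinase, *Pim2*, was higher than both, at 278.5, 274.0, and 279.9 FPKM. It took 89.7 ± 0.361% of the summed FPKM of the family, against 9.22 ± 0.320% for *Pim3* and 1.06 ± 0.0843% for *Pim1* (SD, n = 3). When the longest coding transcript of *Pim1* was cut into words of 50 bases, 89.4% of them were found in no other annotated gene. The others were shared with the antisense gene *Gm26885*, which had 2, 2, and 4 counts. For the other 9 genes, this share was 99.6% or more.

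**Figure D2:**
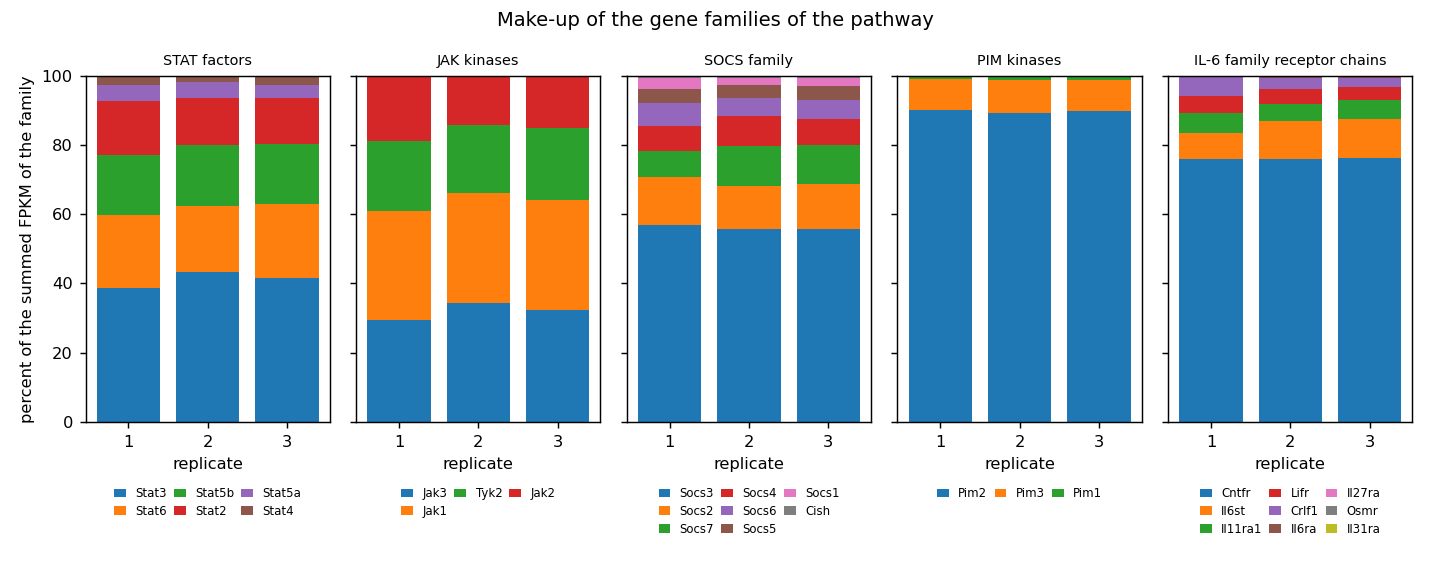
Percent of the summed FPKM of each gene family in replicates 1, 2, and 3 of ALSCs, with 1 panel per family and 1 stacked bar per library. *Socs3*, *Stat3*, *Pim2*, and *Cntfr* take the largest part of their families in each library, and no single kinase dominates the JAK panel.

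Of the genes listed as STAT3 targets in ESCs, 12 of 14 reached 1 FPKM in all libraries. *Klf4* and *Tfcp2l1*, transcription factors through which LIF sustains naive ESCs, were the exceptions. Other transcription factor genes of the list did reach it, among them *Klf5* at 11.7 ± 0.654 FPKM and *Gbx2* at 2.17 ± 0.262 FPKM (SD, n = 3). *Klf4* was at 0.345, 0.280, and 0.400 FPKM and *Tfcp2l1* at 0.533, 0.866, and 0.752 FPKM in replicates 1, 2, and 3. *Socs3* was thus above *Klf4* in every library, by a margin larger than the spread of either. The highest of the list was *Pim2*. The summed level of the list was 434.9 to 441.0 FPKM, of which *Pim2* alone gave 274.0 to 279.9 FPKM, and its median was 5.05 FPKM. The chi-square test between libraries, described below, called 5 of the 14 genes, against 47.2% of all genes tested. *Tfcp2l1* and *Sbno2* were lower and *Fos*, *Ier3*, and *Pim2* higher in replicate 1. In these directions, 23.8% and 23.4% of all genes were called.

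**Figure D3:**
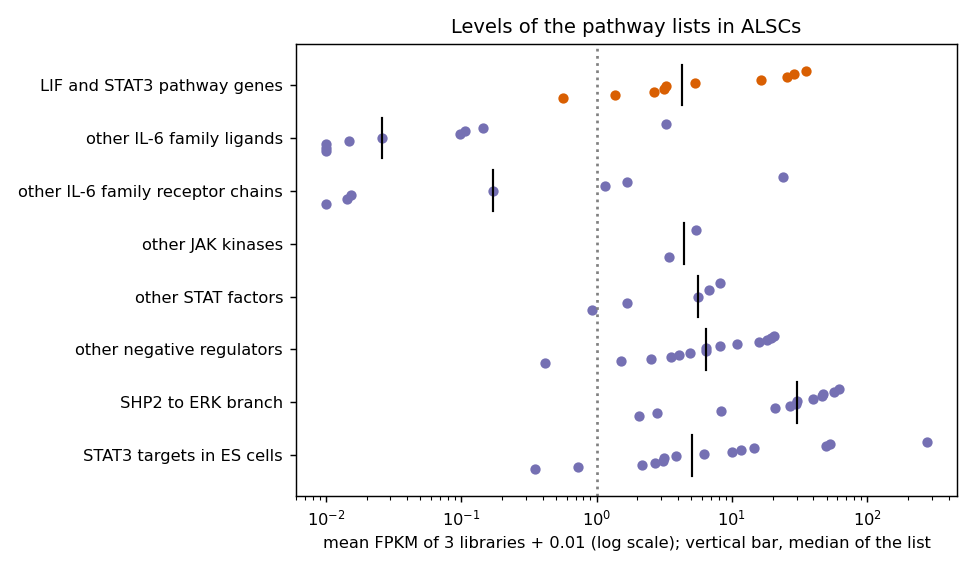
Mean FPKM of each gene over the 3 libraries, plus 0.01 so that genes at 0 can be shown on the log scale, for the 10 pathway genes and 7 other lists. Vertical bars are list medians and the dotted line marks 1 FPKM. The medians of the ligand and receptor lists lie under 1 FPKM, at 0.0162 and 0.162, and those of the other lists lie above it.

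In order of mean FPKM, the genes were *Socs3*, *Pim3*, *Ptpn11*, *Stat3*, *Jak1*, *Pim1*, *Il6st*, *Jak2*, *Lifr*, and *Lif*, with 62.9-fold between the first and the last. For 5 of the 9 pairs of neighbours, the ranges over the 3 libraries were separate. The widest step was the 3.08-fold one from *Stat3* down to *Jak1*, which set 4 genes above 10 FPKM apart from the rest. The other 4 pairs were not separated by their spread. *Pim3* was higher than *Ptpn11* in 2 of 3 libraries, *Pim1* was higher than *Il6st* in 1, and *Il6st* was higher than *Jak2* in 2. *Ptpn11* and *Stat3* overlapped in range, at 18.7 to 30.2 and 12.3 to 18.8 FPKM, although *Ptpn11* was higher within each library. The order depended in part on the length, which in the table is the union of all annotated exons of the gene. With the longest coding transcript, *Ptpn11* moved above *Pim3* at 34.3 against 28.5 FPKM, and *Stat3* came to 25.8 FPKM and overlapped with *Pim3*. As 3 libraries of 1 condition allow no correlation, no gene is named for a pattern like theirs.

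For 4 of the 10 genes, *Il6st*, *Stat3*, *Ptpn11*, and *Jak1*, counts differed among the libraries beyond sampling noise. Adjusted p was 5.94e-20 for *Il6st*, 4.33e-42 for *Stat3*, 2.75e-67 for *Ptpn11*, and 0.000179 for *Jak1* (chi-square test of homogeneity on TMM library sizes, with Benjamini-Hochberg adjustment over 16944 genes). Of all genes tested, 47.2% were called, so the share among the 10 genes was near the background. The test sets the libraries against counting error only. All 4 genes were lower in replicate 1, a direction in which 23.8% of all genes were called. Replicate 1 decided these calls, since without it none of the 10 genes was called, against 8.11% of all genes, and adjusted p was 0.678 for *Il6st*, 0.397 for *Stat3*, 0.0879 for *Ptpn11*, and 0.627 for *Jak1* (chi-square test). Without replicate 2 and without replicate 3 the same 4 genes were called, against 42.9% and 46.7% of all genes.

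After TMM scaling, *Il6st* was at 23.9 CPM in replicate 1, against 41.3 and 39.4 in replicates 2 and 3, and so fell by 40.8% there. *Ptpn11* was at 144.5 against 220.8 and 208.4 CPM and fell by 32.7%. *Stat3* was at 121.5 against 175.1 and 168.5 CPM and fell by 29.3%. *Jak1* was at 33.1 against 39.8 and 41.9 CPM and fell by 19.1%. In each of these genes replicate 1 lay outside the range of the other two, which lay close together.

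The 6 other genes did not pass the test. Adjusted p was 0.301 for *Lif*, 0.165 for *Lifr*, 0.574 for *Jak2*, 0.243 for *Socs3*, 0.555 for *Pim1*, and 0.875 for *Pim3* (chi-square test). *Socs3* was at 97.6, 104.0, and 101.5 CPM and *Pim3* at 69.6, 69.6, and 68.2 CPM in replicates 1, 2, and 3 after TMM scaling. The coefficient of variation of the FPKM of *Pim3* was 2.87%, beside the 2.81% that counting error alone would give at its depth. It was 5.99% for *Socs3* and 4.11% for *Jak2*. At the other end, it was 29.7% for *Il6st*, which exceeded that of 94.9% of expressed genes. The median over the 10 genes was 12.0%, and over expressed genes 10.8%.

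**Figure D4:**
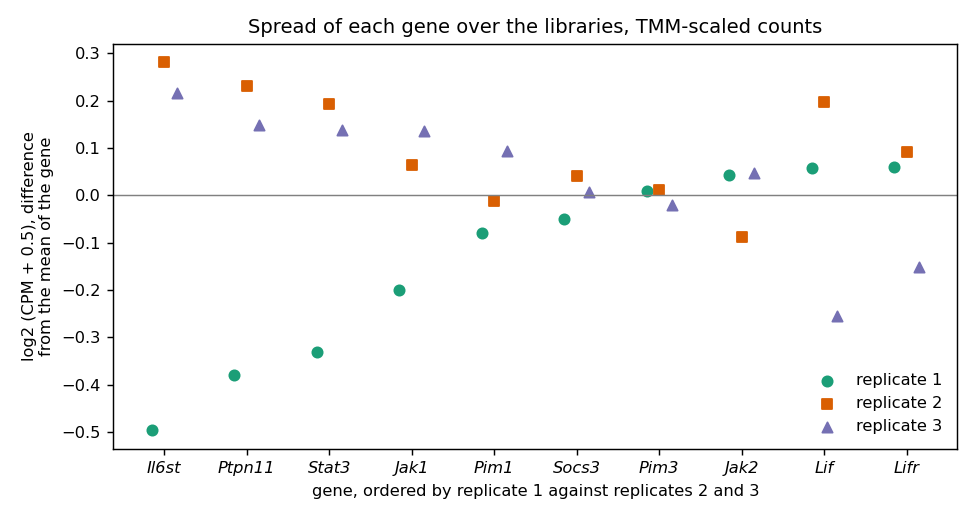
Difference of each library from the mean of the gene, in log2(CPM + 0.5) after TMM scaling, for the 10 pathway genes and replicates 1, 2, and 3. Genes are ordered by replicate 1 against the others. Replicate 1 lies apart for *Il6st*, *Ptpn11*, *Stat3*, and *Jak1*, whereas for *Lif* and *Lifr* the distance between replicates 2 and 3 is the larger one.

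Replicate 1 held fewer counts of long genes in general. Over 10573 genes with a mean of 100 counts or more, split into 20 groups by length, the median log2 ratio of replicate 1 to replicates 2 and 3 went from 0.39 in the shortest group to -0.52 in the longest. The 4 genes called are 7227 to 11099 bases long, and among the 5 genes of 7000 bases or more they were 4, while none of the 5 shorter genes was called. This limit on length was set after the values were seen. Of all genes with at least 500 counts and that length, 76.1% were called. No such share was computed for shorter genes, so the 0 of 5 has no background beside it. *Lif*, 1 of those 5, had 133 counts in all. Beside the log2 ratio of -0.75 for *Il6st*, -0.57 for *Ptpn11*, -0.50 for *Stat3*, and -0.30 for *Jak1* stood group medians of -0.33, -0.20, -0.28, and -0.20, so all 4 genes were below the median of their length. After removal of the trends on length and on GC content, the ratios were -0.43, -0.34, -0.19, and -0.11. The part of length in these differences was not tested further. Among the 4 fibroblast markers tested, *Col1a1* and *Col1a2* were called and lowest in replicate 1 (adjusted p = 6.27e-10 and 0.0110, chi-square test). *Thy1* and *Fbln2* were not called (adjusted p = 0.118 and 0.845, chi-square test), and their log2 ratios were 0.17 and 0.02. The part of these markers was not tested.

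*Lifr* did not pass the test, and its replicate 1 lay between replicates 2 and 3. At 10776 bases it was in the same length group as *Il6st*, and its log2 ratio was 0.09, above that of 90.0% of the 529 genes of the group, while *Il6st* was above 11.3%. The counts of *Lifr* were 267, 299, and 238 in replicates 1, 2, and 3, and those of *Il6st* were 418, 791, and 717. This pair was set side by side after the values were seen. For the short genes *Socs3*, *Pim3*, and *Pim1* the log2 ratio was -0.07, 0.01, and -0.12, below group medians of 0.12, 0.21, and 0.09. For *Jak2* and *Lif*, the other short genes, it was 0.06 and 0.07, above group medians of -0.06 and -0.007. Over the 10 genes the median was -0.10, and over all genes tested it was -0.00302.

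**Figure D5:**
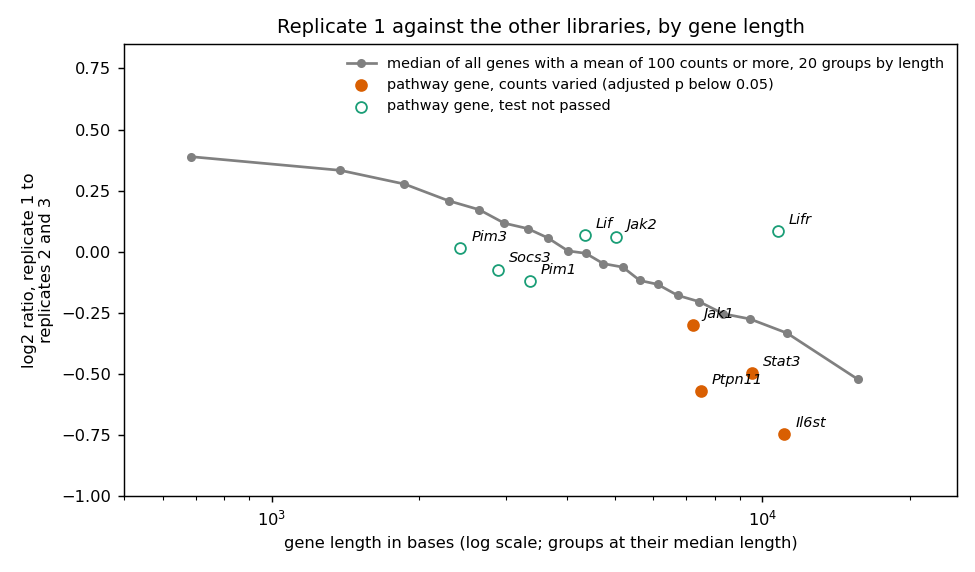
Log2 ratio of replicate 1 to the mean of replicates 2 and 3 against gene length on a log scale. The line joins the medians of 20 groups of genes by length, filled points are pathway genes whose counts varied between libraries, and open points are those that did not pass the test. *Il6st* and *Lifr* have nearly the same length and lie on opposite sides of the line, at -0.75 and 0.09.

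Of the 63 other genes listed for the pathway and its targets, 46 reached 1 FPKM in all libraries and 8 were at or under 3 counts in each. The chi-square test called 26 of the 54 that could be tested, or 48.1%, which was again near the 47.2% of all genes. Of these, 18 were lower and 8 higher in replicate 1, directions in which 23.8% and 23.4% of all genes were called. The kinases *Jak3* and *Tyk2* were both called and both lower in replicate 1 (adjusted p = 7.49e-07 and 0.00468, chi-square test).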

How the data were processed

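PolyA RNA of 3 ALSC libraries was sequenced in paired-end mode, and the authors mapped the reads to GRCm38. The submitters' processing notes list HISAT2 2.0.5. The labels name Trizol and a TruSeq kit, whereas the methods of the paper name a column kit. The program used for counting, its strand setting, and the handling of reads with several matches are not given in the sources used here. The authors deposited raw counts per gene, with a gene length that equalled the union of exons in GENCODE M21 for 99.3% of the named genes found there. The 317 rows without a gene name, which held 0.165% to 0.182% of the counts, were left out. The table's 3 count columns of other cells match no sample of the series and were not used in any step.

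FPKM, TMM factors (edgeR 4.0.16, R 4.3.3), DESeq2 1.42.0 size factors, and log2(CPM + 0.5) were computed from the counts in Python 3.11.15 (pandas 2.3.3, NumPy 2.4.6, SciPy 1.17.1). TMM factors were 0.968, 1.02, and 1.01 for replicates 1, 2, and 3. With 1 condition there was no contrast to fit, so each gene with at least 10 counts was given a chi-square test of homogeneity between libraries at an adjusted p of 0.05, which was tested on simulated data. Length and GC trends were taken as medians in 20 groups. Of the genes with a mean of 100 counts or more, the 99.96% that had a GC content were used for them. The 10 genes and the lists were chosen with earlier results of these data known. The comparison of replicate 1 with replicates 2 and 3 was planned because replicate 1 had stood apart in an earlier account of these data. All 10 genes are named, and of each other list the highest gene, the lowest gene above 3 counts, genes in a ratio, and every gene of lists of 3 or fewer. The other genes named were chosen after their values were seen, and 1 planned ratio is not reported here. Replicates differed from each other by more than sampling noise in 1302 to 7486 genes per pair, so none was a copy of another.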

Additional observations from a re-analysis of the deposited data

How the results depend on the processing

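No paired analysis was possible because there is only 1 condition. The number of genes at 1 FPKM or more stayed at 8 to 10 of 10 under every scaling, length, unit, and threshold tried, and without each replicate at 9. The number of genes whose counts varied stayed at 4 or 5 with other scalings and count minimums, *Socs3* being added with total counts as library sizes. Leaving out a replicate gave 0 to 4 genes, the 0 being without replicate 1. Of the 9 pairs of neighbours, 4 overlapped, 5 did so as TPM or with transcript lengths, and 1 to 4 did so when a replicate was left out, the 1 being without replicate 1. With the longest coding transcript as length, the ratio of *Jak1* to *Jak2* was 2.93, that of *Pim3* to *Pim1* 7.03, and that of *Socs3* to *Stat3* 1.58, because the gene length used before counts exons of all transcripts. The ratio of *Il6st* to *Lifr* moved by less than 1 SD, and no ratio changed direction. The median log2 ratio of replicate 1 over the 10 genes went from -0.10 to -0.16 with total counts, -0.19 without the length trend, and -0.14 without both trends, where that over all genes tested was -0.06, -0.03, and -0.04. A mean of 3 cannot move by 1 SD when a library is left out, so nothing about single libraries follows from that. Levels of single genes moved by more than 1 SD in 10 of 10 cases as TPM, which is a change of unit, and in 6 of 10 with transcript lengths. Depth limits *Lif* most, with 35 to 54 counts per library.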
